A study of Mus musculus with 18 samples.

Results

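Codon 33 of VH186.2 was examined in spleen cDNA of 18 mice of 3 Exo1 genotypes. VH186.2 (IGHV1-72*01, gene symbol Ighv1-72) is the heavy chain segment that dominates the antibody response of C57BL/6 mice to the hapten NP. The codon consists of nucleotides 97, 98 and 99, counted from 1 at the start of the segment, and encodes tryptophan. All mutations listed at these 3 positions, of 276 positions covered (nucleotides 19 to 294, codons 7 to 98), were taken. They make up 436284 of 11704272 listed mutations (3.73%). Of 20618 distinct drawn sequences, 4104 carried a changed codon 33.

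The mice had a C57BL/6 background and were age-matched, and the groups were 7 wild-type Exo1+/+ mice, 8 homozygous Exo1DA/DA knock-in mice, made by CRISPR/Cas9, whose EXO1 protein is nuclease-dead, and 3 EXO1-deficient Exo1-/- mice. All were given a single intraperitoneal injection of NP(33)-CGG on alum, and spleens were taken on day 10. VH186.2 was amplified from total RNA of whole spleen by nested PCR and sequenced, and 1 sequence was drawn for each CDR3 clone in each of 1000 iterations. Unmutated sequences are not listed, so all percentages below refer to mutated clones, and a clone drawn as a given sequence in part of the iterations counts as that part of a clone. Each clone enters with 1 sequence whatever its reads, so that neither the size of a clone nor its RNA per cell changes its weight. The growth of clones with leucine can therefore not be seen here. Mice were numbered within each genotype, and no label links these numbers to the mouse numbers of the sample labels. The number of mutated clones per iteration lay from 37.0 to 323.9 in Exo1+/+ mice, from 21.0 to 167.8 in Exo1DA/DA mice and from 71.0 to 254.2 in Exo1-/- mice.

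In somatic hypermutation, activation-induced deaminase (AID) deaminates cytosine in the variable region of antibody genes, and mismatch repair, in which EXO1 resects the strand, brings in error-prone polymerases that add mutations at A:T pairs. B cells whose receptor binds the antigen better are then selected in germinal centres. In the response to NP, the replacement of tryptophan by leucine at codon 33 of VH186.2 is the classical change that raises the affinity of the antibody.

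The 30 nucleotides from position 85 to 114 are shown for the germline segment and for the 3 changes that the results turn on, with codon 33 in capitals.
germline, tryptophan: ttcaccagctacTGGatgcactgggtgaag
G98T, leucine: ttcaccagctacTTGatgcactgggtgaag
G98T and G99A, leucine: ttcaccagctacTTAatgcactgggtgaag
G98A, stop codon: ttcaccagctacTAGatgcactgggtgaag
Of the 9 single base changes of this codon, 1 gives leucine (G98T), 2 give a stop codon (G98A and G99A), and none is silent. None of the 3 positions lies in a hotspot motif marked in the lists. The codon is flanked by a WRC site at position 96 and by WGCW sites at positions 92 and 93 on one side and 102 and 103 on the other, which are motifs that AID prefers.

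Exo1+/+ mouse 6 and Exo1DA/DA mouse 1 shared 13 identical sets of at least 4 mutations among their clones with leucine, which amounted to 13.0 clones in the first mouse and 18.0 in the second. Another 4 pairs of mice shared such sets. Exo1+/+ mouse 2 and Exo1DA/DA mouse 4 shared 15, which held 0.361 and 0.297 clones. Exo1+/+ mice 6 and 7 shared 1 set, with 1.0 clone in mouse 6 and 11.9 in mouse 7. Exo1+/+ mice 2 and 5 shared 2 sets, with 7.71 and 1.19 clones, and Exo1+/+ mouse 5 and Exo1DA/DA mouse 4 shared 1 set, with 0.189 and 0.022 clones. An identical set of at least 2 mutations that was also found in another mouse was carried by 37.9% of all mutated clones in wild-type, 41.4% in Exo1DA/DA and 26.4% in Exo1-/- mice. Sequences with at least 6 mutations that were like a sequence of another mouse by a Jaccard index of at least 0.7 made up 20.1, 43.1 and 25.7% of the clones in the same order. Whether such clones arose in each mouse or passed between libraries was not tested, and results without them are given below. Sequences with G98T as the only mutation fall outside both rules and stay in those results.

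Tryptophan was replaced by leucine in some clones of every mouse, and hardly any other amino acid was found. Codon 33 was changed in 395.8 of 1939.6 mutated clones per iteration, and 390.3 of these encoded leucine. In Exo1+/+ mice, leucine was carried by 64.8, 39.5, 1.51, 9.48, 8.43, 16.0 and 62.2% of the clones (mice 1 to 7), with a mean of 28.8% ± 26.5 (SD, n = 7). Mice 1 and 7 lay above all others of the study, and mouse 3 was the only wild type below 5%. In Exo1DA/DA mice, the values were 28.8, 20.1, 2.0, 50.2, 4.76, 0.927, 1.78 and 3.28% (mice 1 to 8), with a mean of 14.0% ± 17.8 (SD, n = 8). Mice 1, 2 and 4 were high and the other 5 were below 5%. Without mouse 4, the mean was 8.80%. In Exo1-/- mice, leucine was carried by 1.90, 0.787 and 32.4% of the clones (mean 11.7% ± 17.9, SD, n = 3), so that the mean rests on mouse 3. Each genotype held mice with almost no leucine and mice with leucine in a large part of the clones, and the ranges overlapped. Leucine exceeded 5%, a limit chosen after the values were seen, in 6 of 7 wild-type mice, 3 of 8 Exo1DA/DA mice and 1 of 3 Exo1-/- mice.

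**Figure D1:**
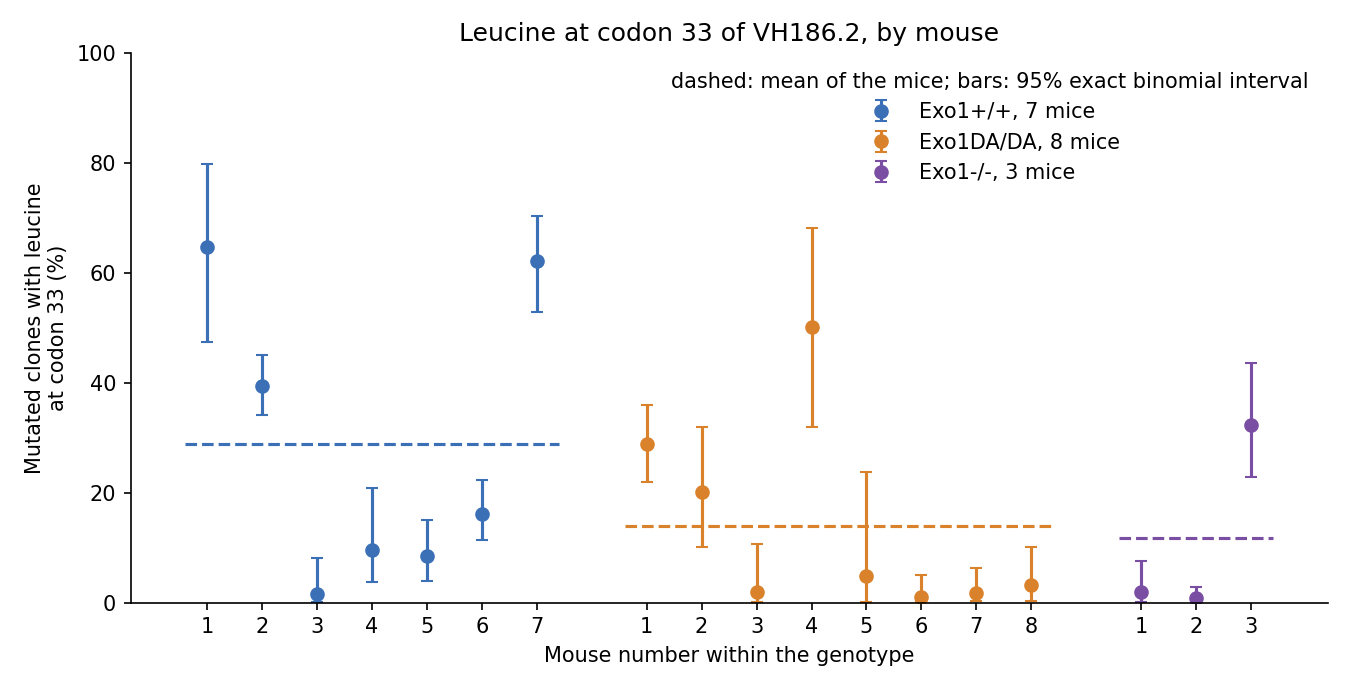
Percent of mutated clones with leucine at codon 33 (vertical axis) in each mouse (horizontal axis, numbered within the genotype), with exact 95% binomial intervals as bars and the mean of the genotype as a dashed line. Values reach 64.8% among wild-type, 50.2% among Exo1DA/DA and 32.4% among Exo1-/- mice, and in each genotype at least 1 mouse lies at or below 1.90%.

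The counting error within a mouse varied with the number of its clones. The exact binomial 95% interval (Clopper-Pearson, on clones rounded to whole numbers) was 47.5 to 79.8% in Exo1+/+ mouse 1, which had 37 mutated clones, and 34.1 to 45.1% in mouse 2, which had 324. It was 3.82 to 20.8% in Exo1+/+ mouse 4, 10.0 to 31.9% in Exo1DA/DA mouse 2 and 0.120 to 23.8% in Exo1DA/DA mouse 5, which had 21 mutated clones, and these 3 intervals overlapped one another. In Exo1-/- mouse 3, it was 22.8 to 43.5%, above the intervals of the other Exo1-/- mice, which ended at 7.60 and 2.82%. These intervals cover counting error only.

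Leucine was lower in the mutants on average, but the differences did not pass the test over mice. The difference in leucine between Exo1DA/DA and Exo1+/+ mice was -14.9 percentage points (2-sided exact permutation test over mice, p = 0.220, adjusted p = 1 over 712 amino acid outcomes of all codons), where 4.63% of all outcomes had an exact p below 0.05 and none passed after adjustment. Exo1DA/DA mice had the lower value in 39 of 56 pairs of mice. The difference between Exo1-/- and Exo1+/+ mice was -17.2 points (exact permutation test, p = 0.367, adjusted p = 1, background 0.562%), with the lower value in Exo1-/- mice in 16 of 21 pairs. The mutants differed by 2.29 points (Exo1DA/DA minus Exo1-/-, exact permutation test, p = 0.921, adjusted p = 1, background 0.983%). These designs could have given p values down to 0.000311, 0.0167 and 0.0121. Single mice moved these values. The difference of Exo1DA/DA from Exo1+/+ mice was -8.88 points without Exo1+/+ mouse 1 and -9.31 without Exo1+/+ mouse 7, and that of Exo1-/- mice was -11.2 without Exo1+/+ mouse 1 and -27.5 without Exo1-/- mouse 3 (p = 0.111, exact permutation test). The difference of the mutants took either sign, from -3.16 without Exo1-/- mouse 2 to 12.6 without Exo1-/- mouse 3. Without Exo1+/+ mouse 6 and Exo1DA/DA mouse 1, the differences in leucine were -19.1 (p = 0.169, exact permutation test), -19.3 (p = 0.286) and 0.171 points (p = 0.983). With the sequences of at least 6 mutations that were like one of another mouse removed, they were -13.1 (p = 0.283, exact permutation test), -19.8 (p = 0.350) and 6.70 points (p = 0.703). With exact sets of at least 2 mutations found in another mouse removed, they were -17.0 (p = 0.158, exact permutation test), -11.5 (p = 0.50) and -5.47 points (p = 0.691). The sign of the difference of the mutants thus depended on how shared sequences were defined. Clones with leucine had fewer mutations than clones with tryptophan, so that the rule of at least 6 mutations reached them less. Under that rule, mean leucine rose to 32.1% (Exo1+/+), 19.0% (Exo1DA/DA) and 12.3% (Exo1-/-). Neither rule removed sequences with G98T as the only mutation, which were found in all 18 mice and held 69.3 clones. Whether these passed between libraries was not tested.

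Counting any change of codon 33 gave nearly the same values, 29.1% ± 26.8 (SD, n = 7) for wild-type, 14.3% ± 18.0 (SD, n = 8) for Exo1DA/DA and 12.5% ± 19.3 (SD, n = 3) for Exo1-/- mice. The differences from Exo1+/+ mice were -14.8 points for Exo1DA/DA (p = 0.224 by exact permutation, adjusted p = 0.770 over 92 codons) and -16.6 points for Exo1-/- mice (p = 0.367, adjusted p = 0.888). The mutants differed by 1.78 points (Exo1DA/DA minus Exo1-/-, exact permutation test, p = 0.982, adjusted p = 0.993). Of all codons, 7.61, 2.17 and 1.09% had an exact p below 0.05 in these comparisons (6.52% were lower in Exo1DA/DA than in Exo1+/+ mice), and none passed after adjustment.

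Position 98, the middle base of the codon, carried most of its mutations. It was mutated in 19.6% of clones on average over the 18 mice (0.790 to 64.8%), against 0.0816% at position 97 and 1.78% at position 99. Of the mutations at position 98, 99.7% in wild-type, 98.4% in Exo1DA/DA and 96.9% in Exo1-/- mice were the transversion G98T, which was found in every mouse. The transition G98A, which makes a stop codon, amounted to 1.87 clones in all 18 mice, and G98C, which gives serine, to 1.35 clones. T97C, which gives arginine, amounted to 1.24 clones, of which Exo1-/- mouse 3 held most. T97A, T97G and G99T were at traces of 0.010, 0.008 and 0.012 clones. G99C was found in 0 of 1939.6 clones, which allows a share of up to 0.155% by counting error over the pooled clones only, without the spread between mice.

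Position 99 was mutated mainly as G99A, and mainly in Exo1+/+ mouse 7. G99A alone turns the codon into a stop, but next to G98T it keeps leucine. It amounted to 41.5 clones in wild-type mice, 0.024 in Exo1DA/DA and 0.004 among Exo1-/- mice, and 97.2% of the clones with G99A in Exo1+/+ mice also carried G98T. In Exo1+/+ mice, G99A was present in 14.6% of the clones with G98T and in 0.186% of those without it. Most of these clones came from 1 animal, since leucine was encoded by TTA in 35.8 clones of Exo1+/+ mouse 7, 4.0 of mouse 6 and 0.49 of mouse 5. In mouse 7, 44.9% of the changed codons were TTA. Without mouse 7, G99A was in 2.27% of the clones with G98T and in 0.00562% of those without it. In Exo1-/- mice, 0 of 410.7 clones had TTA, which allows a share of up to 0.730% by counting error over the pooled clones only, without the spread between the mice. At position 99, the difference from Exo1+/+ mice was -4.57 points in Exo1DA/DA mice (p = 0.0855 by exact permutation, adjusted p = 0.857 over 276 positions, background 5.07%) and -4.58 points in Exo1-/- mice (p = 0.0667, adjusted p = 0.976, background 1.09%). The mutants differed there by 0.0048 points (Exo1DA/DA minus Exo1-/-, p = 0.267 by exact permutation, adjusted p = 0.995, background 0.362%). As a single base change, G99A differed by -4.57 points (p = 0.0821 by exact permutation, adjusted p = 0.963 over 763 base changes, background 5.64%) and -4.58 points (p = 0.117, adjusted p = 1, background 0.655%) from Exo1+/+ mice in the same order. Without Exo1+/+ mouse 7, the differences at position 99 were -0.426 points for Exo1DA/DA (p = 0.183 by exact permutation) and -0.430 points for Exo1-/- mice (p = 0.0952).

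Outcomes other than leucine were rare and came from few animals. A changed codon 33 without leucine made up 1.45% of the clones in Exo1+/+ mouse 7, 2.34% in Exo1DA/DA mouse 2 and 2.40% in Exo1-/- mouse 3, and less than 0.5 clones in each of the other 15 mice. In Exo1-/- mouse 3, arginine was carried by 1.26%, a stop codon by 0.764% and serine by 0.374% of the clones. A stop codon in place of codon 33 amounted to 2.93 clones in all mice, of 13.2 clones with a stop codon anywhere in the covered segment. Among mice with at least 5 clones changed at codon 33, leucine made up 99.4% of the changed clones in Exo1+/+ (n = 6) and 96.5% in Exo1DA/DA mice (n = 3), a difference of -2.90 points (exact permutation test, p = 0.619). Over distinct sequences, without weight, it was -21.1 points (n = 7 and 7, exact permutation test, p = 0.191). Without Exo1DA/DA mouse 2, where the share was 89.6%, the difference was 0.566 points (p = 0.214, exact permutation test). Only 1 Exo1-/- mouse had at least 5 such clones, so no test was made there.

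G98T stood out among the changes from G to T. In all 18 mice, G98T was more frequent than the mean G-to-T change at the 79 other G sites of the segment. In 8 of these mice this rested on 1.00 to 2.27 leucine clones each, and in Exo1-/- mouse 2 the values were 0.787 and 0.652%. G98T was carried by 19.4% of the clones on average, against 0.350% at the other sites (difference 19.0 points, 2-sided exact sign-flip permutation test within mice, p = 7.63e-06, the smallest it can give, adjusted p = 1.65e-05). Over all positions, 3.5% of the base changes were higher than the same change at other sites by this test. The difference was 28.5 points in Exo1+/+ mice (p = 0.0156 by exact permutation, adjusted p = 0.0239, background 0.966%) and 13.5 points in Exo1DA/DA mice (p = 0.00781, adjusted p = 0.0130, background 0.845%). In the Exo1-/- mice, whose number keeps this exact permutation test at or above p = 0.25, the difference was 11.4 points (p = 0.25, background 0%). Over all 18 mice, the difference was 20.7 points for distinct sequences without weight (p = 0.00143, exact permutation test). It was 15.2 points (p = 0.000488, exact permutation test) when only clones with a mutation outside the codon were counted. In Exo1DA/DA mice, the difference was 10.8 points (p = 0.125, exact permutation test) when only clones with a mutation outside the codon were counted, and 8.34 points (p = 0.0156) without mouse 4. It was 26.2 points (p = 0.00781, exact permutation test) with each lineage of a mouse counted 1 time, where sequences with at least 4 mutations outside codon 33 were joined by a Jaccard index of at least 0.7 and those with fewer were left as they were. Clones with leucine had fewer such mutations than clones with tryptophan, so that this rule reached them less and by itself raises the share of G98T. Among Exo1-/- mice, the difference was 0.984 points without mouse 3 and 4.38 points among clones with a mutation outside the codon. G98T was the most frequent G-to-T change in 9 of 18 mice. The changes with the next highest means were G170T (8.01%) and G169T (6.04%), both in the glycine codon 57, and G114T (2.83%).

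The transition G98A was rare. It was found in 0.141% of clones, against a mean of 2.70% for G-to-A at the other G sites (difference -2.56 points, exact permutation test, p = 2.29e-05, adjusted p = 4.30e-05, lower in 17 of 18 mice). However, 70.3% of all base changes were lower than the same change at other sites. Against the median of the other sites, G98A was 0.136 points higher and was lower in 10 of 18 mice only. Against the 59 other G sites without a motif, it was lower in 16 of 18 mice (difference -0.724 points, exact permutation test, p = 0.000648). The share of all base changes that were lower in such a comparison was not obtained, so this p stands without a background. Among the 80 G sites, G98A ranked from 14 (Exo1DA/DA mouse 2) to 67 (Exo1DA/DA mouse 1) within a mouse.

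**Figure D2:**
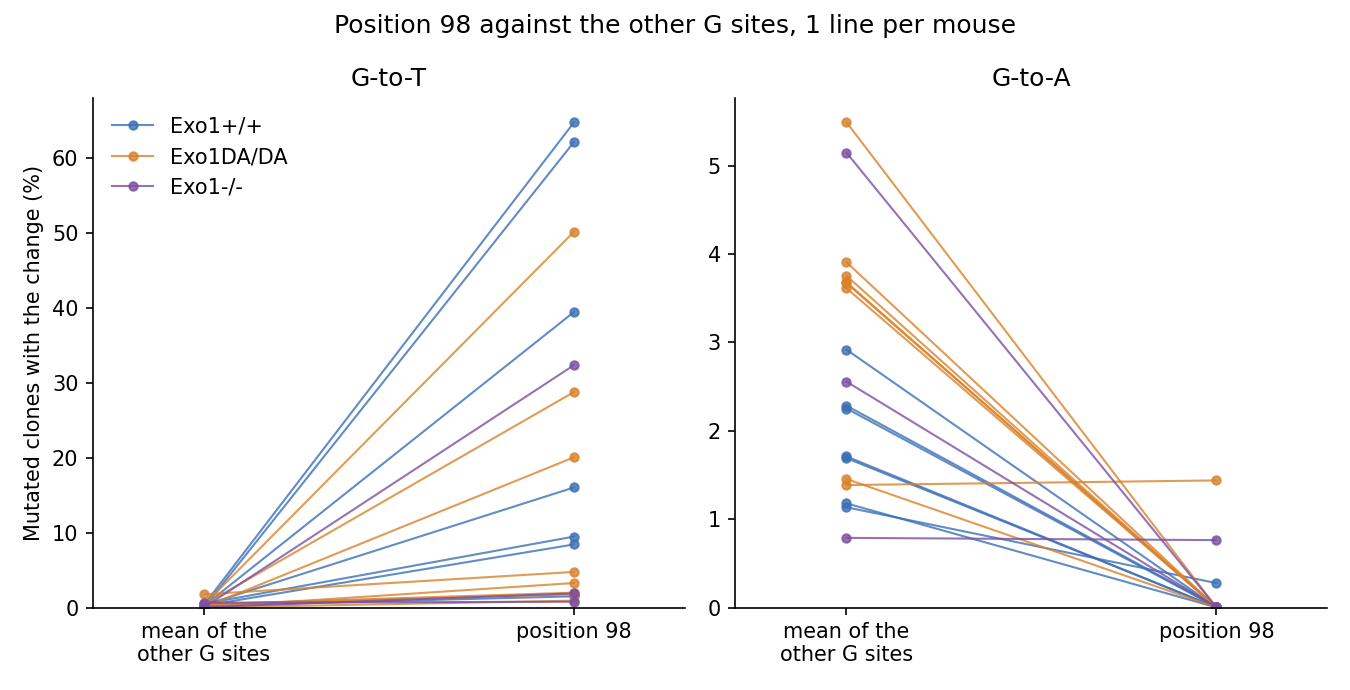
Percent of mutated clones (vertical axes, different scales) with G-to-T (left) or G-to-A (right), as the mean of the 79 other G sites and at position 98, with 1 line per mouse coloured by genotype. Every line rises for G-to-T, with means of 0.350 and 19.4%, and for G-to-A 17 of 18 lines fall, with means of 2.70 and 0.141%.

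Codon 33 ranked 4th of 92 codons by the mean percent of clones with an amino acid change. Serine 31 was changed in 25.6% of clones, glycine 57 in 24.2%, serine 66 in 21.2% and tryptophan 33 in 19.7%. The rank of codon 33 within a mouse lay between 1 and 43, and it was 1 in Exo1+/+ mice 1, 2 and 7 and in Exo1-/- mouse 3. By genotype means, codon 33 was the most changed codon of wild-type mice and ranked 8 among the codons of both mutants. The changes of codon 33 led almost entirely to 1 amino acid. Leucine was 98.1% of its changes, whereas asparagine, the leading outcome at codons 31, 57 and 66, was 57.8, 28.4 and 69.6% of theirs. Of the neighbours, methionine 34 was changed in 12.3% of clones (88.8% of it to isoleucine), histidine 35 in 1.96% and tyrosine 32 in 0.207%. These are descriptions, without a test between codons.

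**Figure D3:**
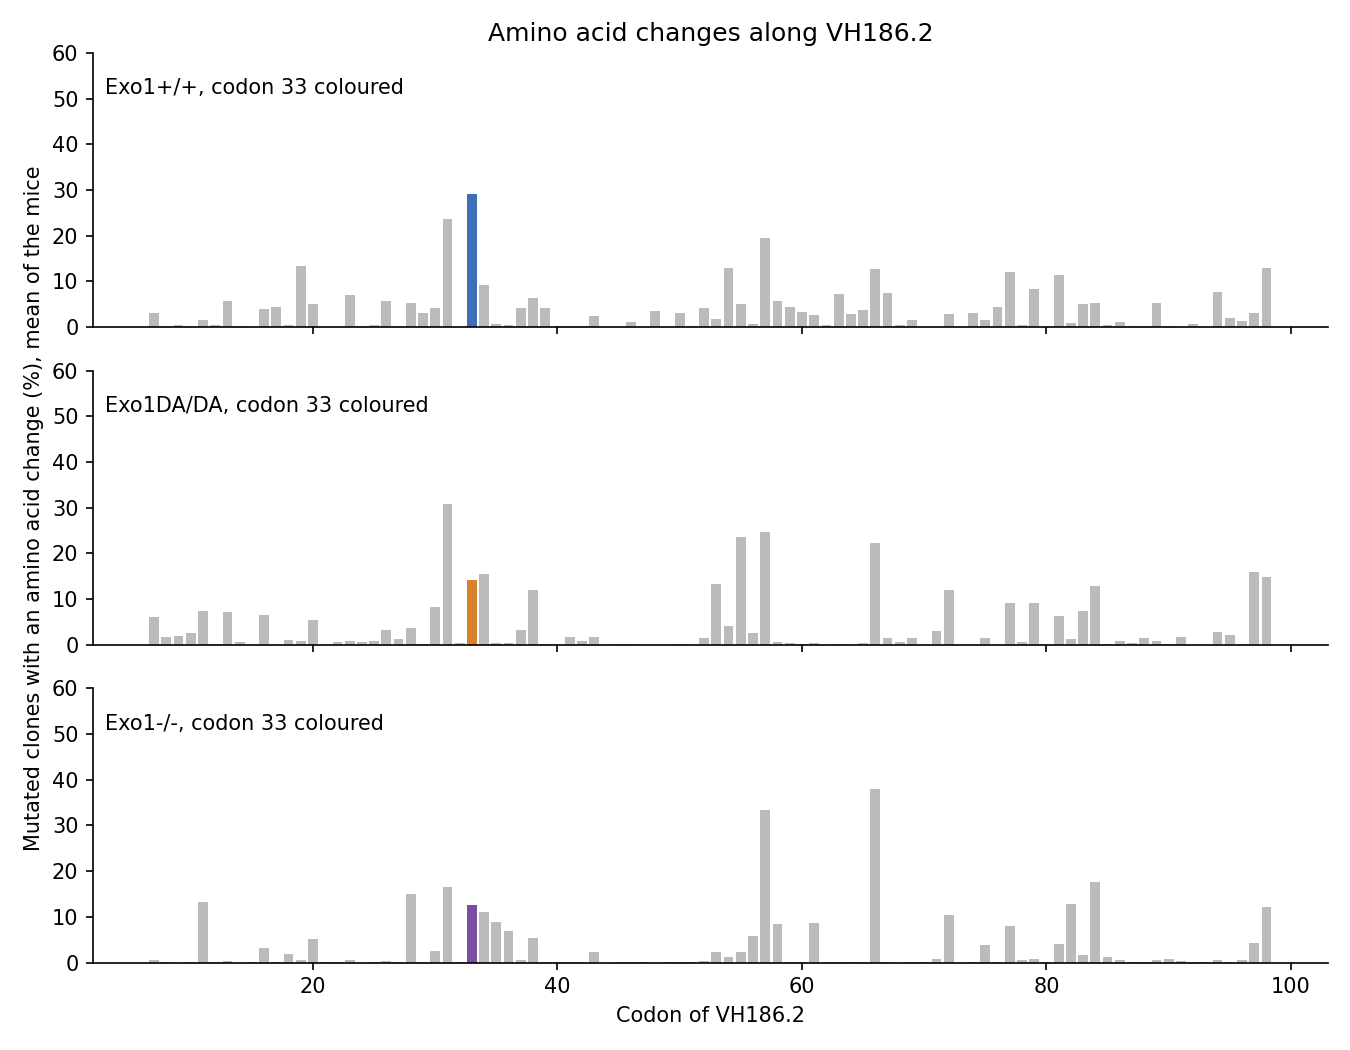
Mean percent of mutated clones with an amino acid change (vertical axes) at each covered codon of VH186.2 (horizontal axis), for 7 wild-type mice (top), 8 Exo1DA/DA mice (middle) and 3 Exo1-/- mice (bottom), with codon 33 coloured. Codon 33 is the highest bar in Exo1+/+ mice at 29.1% and is exceeded by other codons in Exo1DA/DA mice at 14.3% and in Exo1-/- mice at 12.5%.

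At the level of single bases, the changes of codon 33 stood among stronger and weaker sites. Position 92, a G in the WGCW site of codon 31, was mutated in 22.0% of clones on average and position 93, its C, in 10.8%. Position 102, the G of the WGCW site in codon 34, was mutated in 10.9%, position 103 in 1.79% and position 96 in 3.75%. Position 98, without a motif, was mutated in 28.9% and position 92 in 16.9% of the clones of Exo1+/+ mice, while in Exo1DA/DA mice the values were 14.3 and 30.1%, and among Exo1-/- mice 12.1 and 12.1%. The SDs of these values lay between 7.06 and 26.7 points, and the change of order was not tested.

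Many clones with leucine carried no other mutation or a set of mutations that was seen in another mouse too. Of 390.3 clones with leucine, 92.2 (23.6%) were changed in codon 33 only, 137.1 (35.1%) had a set that also occurred in another mouse, and 161.0 (41.3%) had a set found in 1 mouse only. G98T as the only mutation was found in all 18 mice and held the most clones in Exo1-/- mouse 3, with 19.8 of 27.7 leucine clones. As a share of leucine clones it was higher in Exo1DA/DA mice 3, 5 and 6, with about 1 leucine clone each. G77A with G98T was found in 8 mice, with 13.2 clones in Exo1DA/DA mouse 1 and 5.57 in Exo1+/+ mouse 6. G98T with C180T and A294T was found in 12 mice, with 9.20 clones in Exo1DA/DA mouse 4 and 1.0 or less in each of the other 11. The sets were examined after the leucine values were seen.

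The leucine clones of the 8 mice with fewer than 5 such clones were changed in codon 33 only or had a set also found in another mouse, almost without exception. They were 1 Exo1+/+, 5 Exo1DA/DA and 2 Exo1-/- mice, with 1.00 to 2.27 leucine clones each, and at most 0.002 of these clones had a set found in that mouse only. In Exo1DA/DA mice 3, 5 and 6, practically all leucine clones were changed in codon 33 only, which was not counted as private. A set also found in another mouse made up 99.5% of the leucine clones in Exo1+/+ mouse 3, 50.0 and 69.2% in Exo1DA/DA mice 7 and 8, and 74.4 and 50.0% in Exo1-/- mice 1 and 2. With so few clones, these shares are not compared with those of the other mice. In the 10 mice with at least 5 leucine clones, the clones with a private set reached 89.7 in Exo1+/+ mouse 2. As a percent of all mutated clones, leucine with a private set made up 34.8, 27.7, 0.00301, 3.94, 2.08, 0.213 and 24.6% in Exo1+/+ mice 1 to 7. In Exo1DA/DA mice, this share was 7.71% in mouse 1, 17.0% in mouse 4 and 0.0314% or less in the other 6. In Exo1-/- mice, it was 4.77% in mouse 3 and 0.000787% or less in the others. In Exo1+/+ mouse 6, 79.0% of the leucine clones had a set seen in another mouse, and in Exo1DA/DA mouse 1 it was 72.1%.

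**Figure D4:**
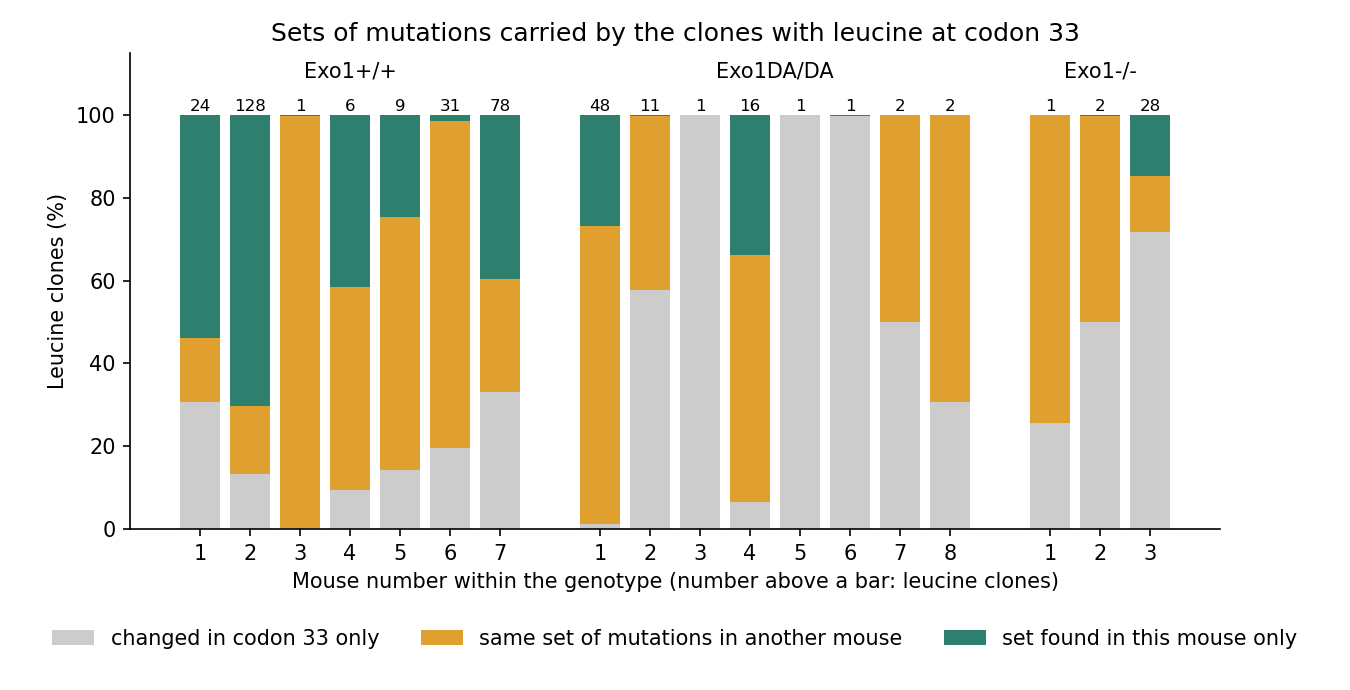
Clones with leucine at codon 33 in each mouse (horizontal axis), divided by percent (vertical axis) into those changed in codon 33 only, those whose set of mutations was also found in another mouse and those whose set was found in that mouse only, with the number of leucine clones above each bar. Private sets make up 70.2% in Exo1+/+ mouse 2 and 39.6% in Exo1+/+ mouse 7. The 8 mice with 1.00 to 2.27 leucine clones had too few for a comparison of these shares.

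Other changes accompanied leucine at levels that varied widely between mice. The 3 changes most often carried with leucine, by the mean over the 10 mice with at least 5 leucine clones, were G77A (17.3% of leucine clones, 0 to 84.9%), C180T (15.7%, 0 to 93.3%) and A294T (13.3%, 0 to 92.8%). A294T lies at the last position covered, and whether the end of the segment affects its values was not tested. The clones with tryptophan in the same mice carried G77A at 7.22% (0 to 69.2%), C180T at 8.75% (0.00657 to 38.0%) and A294T at 7.29% (0 to 69.2%). G77A was more frequent in leucine than in tryptophan clones in 8 of the 10 mice, A294T in 7 and C180T in 5. Single mice weighed heavily in several of these means. Without Exo1+/+ mouse 1, where G77A was in 4.18% of the leucine and 69.2% of the tryptophan clones, the means of G77A were 18.8 and 0.325%. This mouse was left out for having the highest value in tryptophan clones. Exo1DA/DA mouse 1, with G77A in 84.9% of its leucine and 2.47% of its tryptophan clones, was not left out. Without Exo1DA/DA mouse 4, where A294T was in 92.8 and 69.2% of these clones, the means were 4.50 and 0.412% for A294T and 7.06 and 5.50% for C180T. G77A was in 84.9% of the leucine clones of Exo1DA/DA mouse 1 and in 63.5% of those of Exo1+/+ mouse 6, which shared 13 sets. In all 18 mice, clones with leucine had fewer mutations outside codon 33 than clones with tryptophan, which need another mutation to be listed. Among clones with another mutation, this held in all 10 mice with at least 5 leucine clones, which had 1.44 to 3.42 such mutations per leucine clone and 3.30 to 9.77 per tryptophan clone. It also held in the 6 other mice that could be compared, in which at most 1.57 leucine clones had another mutation. Across the 18 mice, the percent of clones mutated at position 98 was most alike to that at positions 77, 55 and 59 (Spearman's rho 0.756, 0.746 and 0.715). Positions 55 and 59 were mutated in only 0.0442 and 0.0428% of clones, and all positions share the clones and the depth of a mouse.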

How the data were processed

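VH186.2 amplicons from spleen RNA of 18 mice were sequenced on a MiSeq. Read pairs were assembled and collapsed by molecular identifier by the authors, who used IMGT/HighV-QUEST to find the V, D and J genes and the CDR3 clones and drew 1 sequence of each clone in 1000 iterations. Program versions are not given in the sources used here. The lists deposited by the authors hold 1 line per mutation with a nucleotide position, base change, motif, iteration and dataset number, and are neither read counts nor normalized values; read depth is not contained in them.

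The weight of a sequence was the number of iterations that drew it divided by 1000. Each dataset number was taken as 1 mouse, and the mouse was the unit of replication. For genotypes, the 2-sided exact permutation test of the difference of means was used, and for position 98 against the other G sites an exact sign-flip test within mice, with Benjamini-Hochberg adjustment over all codons, outcomes, positions or base changes; calls used a threshold of 0.05. Named were codon 33, its positions and outcomes, codons 31, 32, 34 and 35, and the 3 leading codons, G-to-T sites, accompanying changes and positions most alike to 98. These members and lists were chosen with earlier results of these data known. Alternatives varied the iterations, weights, lineages, shared sequences, denominator, ends, mice, test and comparator. On simulated data, 60 of 60 planted differences were recovered. In simulated comparisons of 8 and 7 mice, 24 of 400 without a difference and 378 of 400 with a 10-fold difference had an exact p below 0.05. A contrast as small as that of the leucine means (28.8% against 14.0%) was not among these comparisons, and neither was a group of 3 mice. How often the exact test would detect such contrasts was therefore not tested. Calculations were run in Python 3.11.15 with pandas 2.3.3, NumPy 2.4.6 and SciPy 1.17.1. The gene symbol came from a RefSeq table, and reads of related V genes were not searched for.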

Additional observations from a re-analysis of the deposited data

Results flagged for a closer look

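In 6 of 12 groups of 7 or 8 mice, 1 mouse lay far from the others by Dixon's criterion, which chance meets in about 1 in 20 groups of normally distributed values. These percentages cannot fall below 0 and many are traces, and how often chance meets the criterion with such values was not tested. These groups overlap in content, since stop codons are part of the outcomes other than leucine. Leucine encoded by TTA was found in 28.5% of the clones of Exo1+/+ mouse 7, far above the other Exo1+/+ mice, the next of which had 2.10%. In Exo1DA/DA mice, TTA was highest in mouse 4, at a trace of 0.00935% of the clones, while 6 of 8 mice had none. A changed codon 33 without leucine was highest in Exo1+/+ mouse 7 (1.45%) and in Exo1DA/DA mouse 2 (2.34%), and so was a stop codon at this place (1.07 and 1.45%). Each of these stop values rests on about 1 clone per iteration.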

How the results depend on the processing

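Of 339 alternative values, 310 kept their direction and their side of an exact p of 0.05, without adjustment. In 43 of the 339, among them all for G98T and G98A in Exo1-/- mice, the number of mice kept p above 0.05 whatever the values. Of the other 296, 271 kept both. Leaving out 1 mouse at a time, the difference in leucine ranged from -20.0 to -8.88 points (Exo1DA/DA minus Exo1+/+), -27.5 to -11.2 (Exo1-/- minus Exo1+/+) and -3.16 to 12.6 (Exo1DA/DA minus Exo1-/-), and that in any change of codon 33 from -19.9 to -8.83, -27.7 to -10.6 and -4.07 to 12.9. The share of leucine among changed clones (Exo1DA/DA minus Exo1+/+) ranged from -4.64 to 0.566 points. G98T minus the other G sites ranged from 16.4 to 20.1 points in all mice, 22.6 to 33.1 in wild-type mice, 8.34 to 15.3 in Exo1DA/DA mice and 0.984 to 17.1 among Exo1-/- mice, the last lowest without Exo1-/- mouse 3. G98A minus the other G sites ranged from -2.71 to -2.39, -2.0 to -1.66, -3.65 to -2.86 and -3.85 to -1.29 points in the same order.

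Pooling clones over mice with the chi-squared test of the study's methods, which ignores the spread between mice, turned all 3 comparisons significant, with differences of -16.8, -22.5 and 5.62 points for any change and -16.9, -22.8 and 5.90 for leucine (p from 2.39e-19 to 0.00751). The difference of the mutants (Exo1DA/DA minus Exo1-/-) turned negative without the ends of the segment (-1.37 for any change, -0.651 for leucine), with exact shared sets removed (-6.39 and -5.47) and, for any change, without Exo1+/+ mouse 6 and Exo1DA/DA mouse 1 (-0.288). The share of leucine turned positive among clones with another mutation (0.218), with at least 3 mutations (0.178) and by ranks (0.5 mean ranks). In Exo1DA/DA mice, G98T minus the other G sites missed the threshold for distinct sequences (17.0 points, p = 0.125), clones with another mutation (10.8, p = 0.125) and clones with at least 3 mutations (10.1, p = 0.172, all exact permutation tests). Against the median of the other G sites, G98A was higher by 0.136 points in all mice, 0.0376 in wild-type, 0.178 in Exo1DA/DA and 0.251 among Exo1-/- mice. The share of leucine was -21.1 points for distinct sequences. With each lineage counted 1 time, G98T minus the other G sites was 26.2 points in Exo1DA/DA mice, and among clones with another mutation it was 4.38 in Exo1-/- mice. G98A was -1.21 points in all mice for distinct sequences, -1.45 with each lineage counted 1 time and -0.724 against G sites without a motif. The difference of the mutants in leucine was 9.32 points for distinct sequences and 11.7 by lineage (p = 0.703 and 0.533, exact permutation tests). The causes were not tested. Removing exact shared sets, leaving out the pair of mice, the G sites without a motif and leaving out single mice for G99A and for the changes carried with leucine were chosen after seeing the data. The share of leucine was not compared with Exo1-/- mice, where 1 mouse had enough clones. No paired analysis was possible because the dataset numbers are not linked to labelled mice and replicate numbers were given in accession order. The number of mutated clones, 21.0 in the smallest mouse, limits what can be seen of rare outcomes.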
